A study of Mus musculus with 4 samples.

Results

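The genes described here encode the R-spondin receptor axis: the receptors Lgr4, Lgr5 and Lgr6, the membrane ubiquitin ligases Znrf3 and Rnf43, and the secreted ligands Rspo1, Rspo2, Rspo3 and Rspo4. They were taken by symbol from the platform annotation, and all 9 were among the 19938 genes measured, each with 1 probe set. The group was chosen by the measured change of Lgr4, whose rise after Usp22 depletion was already known from these arrays, so that change is given as a description, without a test. The other 8 genes were selected on their known place beside it. R-spondins are secreted proteins that strengthen Wnt signalling. Znrf3 and Rnf43 mark Frizzled receptors for removal from the cell surface, and an R-spondin bound to both an Lgr receptor and one of these ligases clears the ligase and leaves more Frizzled in place. Lgr5 is best known as a marker of intestinal stem cells, and Znrf3 and Rnf43 are Wnt target genes that act as feedback inhibitors.

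RNA was measured in E14 cells, a mouse embryonic stem cell line, on 4 Affymetrix arrays. All cells grew without feeders on gelatin with serum, LIF and 2i, the MEK inhibitor PD0325901 with the GSK3 inhibitor CH99021. GSK3 normally marks beta-catenin, the transducer of Wnt signals, for destruction, so the inhibitor is known to act on this pathway downstream of its receptors. Control cells (2 arrays) carried a lentiviral shRNA against Luc, and depleted cells (2 arrays) one against Usp22, the deubiquitinase of the SAGA coactivator complex. The labels give no age of the knockdown and no shRNA sequence, and do not say whether replicates were separate cultures. The p-values therefore measure the spread between these arrays, pooled over all genes, and that spread could be technical.

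Values are log2 signals, quantile-normalized between the arrays. Usp22 read 9.41 and 9.36 in controls and 8.23 and 8.29 in depleted cells, lower on both depleted arrays (log2 fold change −1.12, limma adjusted p = 0.00826). Its change was −1.09 without depleted replicate 1 and −1.15 without depleted replicate 2. Its call was lost in both of these fits. They rest on the spread of the control arrays alone and called almost no gene, so this loss is not particular to Usp22. All 8 pluripotency markers in the list, Pou5f1, Nanog and Sox2 among them, lay above the receptor background, defined below. Control replicate 2 stood apart from the other arrays. Its correlation with control replicate 1 across genes was 0.941, against 0.978 between the depleted arrays. Control replicate 1 correlated more with depleted replicates 1 and 2, at 0.951 and 0.974, than with control replicate 2. By this measure the control arrays did not group together. On the first principal component (75.1% of the variance) control replicate 2 lay at −55.5. There control replicate 1 had −3.30, and depleted replicates 1 and 2 had 37.0 and 21.9. The receptor background is the 95th percentile, 6.99, of the mean signals of 1196 olfactory and vomeronasal receptor genes, and a signal below it is near the floor of the array. By the mean over the 4 arrays, 2 of the 9 genes lay above it, Lgr4 and Rspo1, and Znrf3 joined them by the mean of its brighter group. The other 6, Lgr5, Lgr6, Rnf43, Rspo2, Rspo3 and Rspo4, lay under it in both groups.

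Lgr4, the most broadly expressed of the 3 R-spondin receptors, was higher in depleted cells. Its signal was 6.87 on control replicate 1 and 6.06 on control replicate 2, and 7.89 and 7.74 on the depleted arrays. Both depleted arrays lay above both control arrays, and the control arrays differed from each other by 0.82, against 0.15 between the depleted arrays. Only the depleted arrays were above the receptor background. On the linear scale deposited by the authors, the intensities were 119 and 73.8 in controls and 238 and 214 in depleted cells. The group means were 6.47 ± 0.58 and 7.82 ± 0.11 (SD, n = 2 each), a 2.55-fold difference (log2 fold change 1.35, standard error 0.27). That standard error is pooled over all genes and is the same for each, so it does not reflect the spread of Lgr4 itself. In size the change of Lgr4 was number 11 among the upward changes of all 19938 genes. Without control replicate 2 the log2 fold change was 0.94, and without control replicate 1 it was 1.76. It was 1.27 without depleted replicate 1 and 1.43 without depleted replicate 2.

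**Figure D1:**
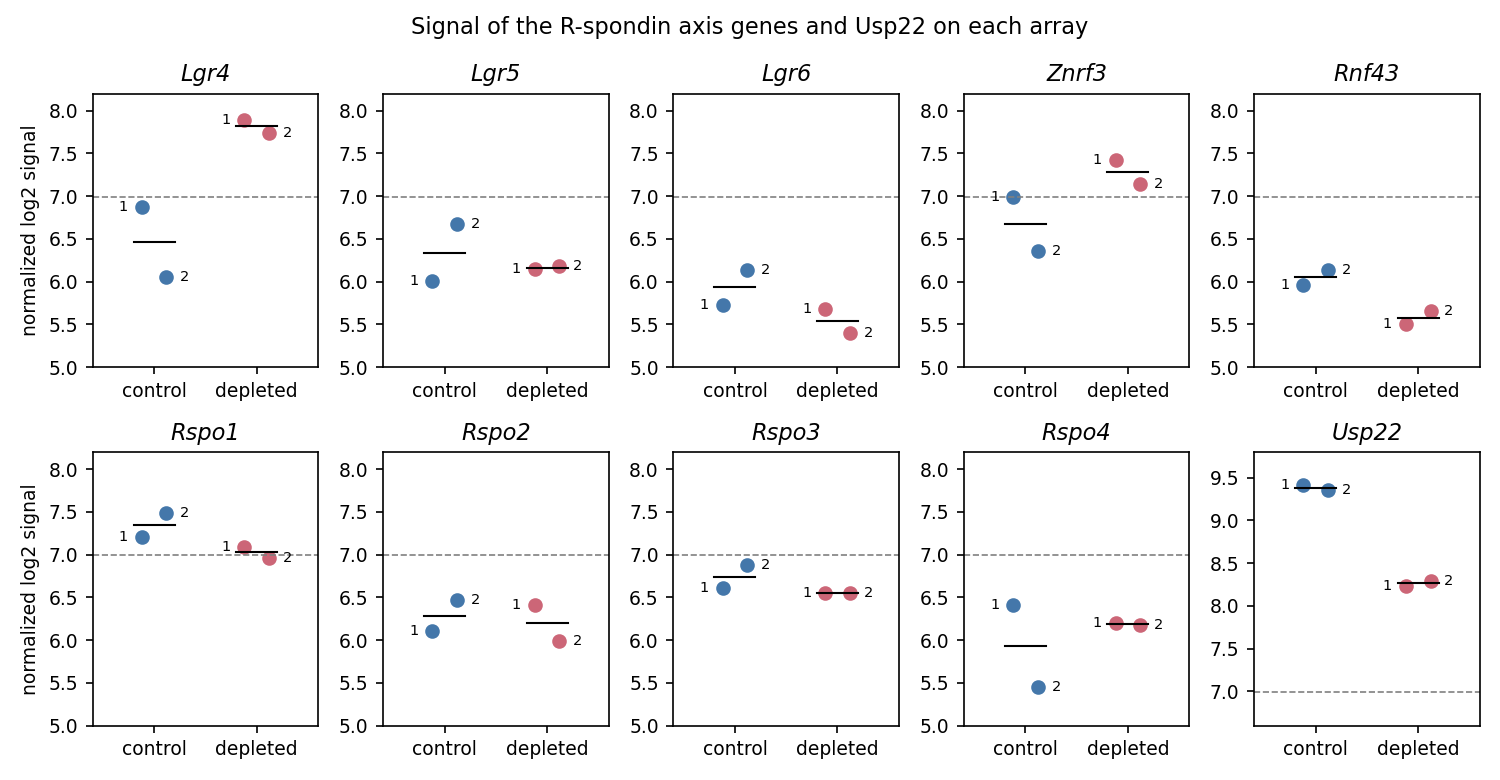
Normalized log2 signal (vertical axis) of the 9 R-spondin axis genes and Usp22 on the 2 control and 2 depleted arrays, with replicate numbers beside the points, a bar at each group mean and the receptor background of 6.99 as a dashed line (the Usp22 panel has its own vertical range). Lgr4 rises from 6.87 and 6.06 to 7.89 and 7.74 and crosses the dashed line, while Lgr5 and Lgr6 stay under it on every array.

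The promoter of Lgr4 is shown because Lgr4 is the member with the largest change. RefSeq (GRCm38.p6) places the 300 bases from 250 before to 50 after its start at chr2:109917397-109917696, plus strand. Capitals mark the only match to ATTTGCAT, the octamer that POU factors such as Pou5f1 are known to bind, beginning at position −49 from the start site.
Lgr4 promoter: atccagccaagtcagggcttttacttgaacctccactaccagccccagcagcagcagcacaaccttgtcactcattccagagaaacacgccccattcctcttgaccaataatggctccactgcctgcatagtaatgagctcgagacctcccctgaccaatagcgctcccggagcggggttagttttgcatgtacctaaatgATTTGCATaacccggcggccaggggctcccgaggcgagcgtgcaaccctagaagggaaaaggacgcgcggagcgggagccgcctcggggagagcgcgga
The octamer was searched, on both strands, after this window had been read, and 1.74% of 32851 promoter windows of the same length hold it. The TCF/LEF cores CTTTGAT and CTTTGAA, searched on both strands, are in 8.65% of those windows and have no match in this one. The window is 58.3% G and C with 18 CpG sites, against medians of 52.7% and 7 over all windows. The table held windows of 5 of the 9 genes, Lgr4, Lgr6, Rnf43, Rspo1 and Rspo4. None of the windows other than that of Lgr4 had a match to any of the 3 motifs. A match is a run of letters and not a measured binding site.

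Lgr5, the receptor that marks intestinal stem cells, overlapped between the groups. It read 6.01 and 6.67 in controls and 6.14 and 6.18 in depleted cells. The depleted arrays lay between the control arrays (log2 fold change −0.18, limma adjusted p = 0.643). The sign turned to 0.15 without control replicate 2, and the change was −0.51 without control replicate 1. Lgr6, the third receptor of the family, read 5.73 and 6.14 in controls and 5.68 and 5.40 in depleted cells. It was lower on both depleted arrays, but depleted replicate 1 lay just below control replicate 1, and the difference did not pass the test (log2 fold change −0.40, limma adjusted p = 0.327). Without control replicate 2 it was −0.19, and without control replicate 1 it was −0.60 and passed (limma adjusted p = 0.0320). That last fit called 24.5% of all genes higher and 21.2% lower, shares against which a pass in it is to be read. For both receptors the signal was under the receptor background on every array.

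Of the 2 ligases, Znrf3 was higher and Rnf43 lower by their group means, and neither passed the test. Znrf3 read 6.99 and 6.36 in controls and 7.42 and 7.15 in depleted cells. Both depleted arrays lay above both control arrays, with control replicate 2 lowest, the same order as for Lgr4 (log2 fold change 0.61, 1.52-fold, limma adjusted p = 0.170). The change was 0.30 without control replicate 2. It was 0.92 without control replicate 1, where it passed (limma adjusted p = 0.00240). Rnf43 read 5.96 and 6.14 in controls and 5.50 and 5.66 in depleted cells. Its arrays within each group lay close together, by 0.18 in controls and 0.16 in depleted cells, and the groups did not overlap (log2 fold change −0.47, limma adjusted p = 0.265). Its change was −0.38 when control replicate 2 was left out and −0.56 when control replicate 1 was left out, where it passed (limma adjusted p = 0.0414). All 4 of its signals were under the receptor background.

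The R-spondin ligands, whose usual source in tissues is mesenchymal cells, showed smaller differences, from −0.32 to 0.25 on the log2 scale. Rspo1 read 7.21 and 7.48 in controls and 7.09 and 6.96 in depleted cells. It was lower on both depleted arrays and was the only ligand above the receptor background by its mean over the 4 arrays (log2 fold change −0.32, limma adjusted p = 0.414). Its change was −0.18 without control replicate 2. Rspo3 read 6.61 and 6.87 in controls and 6.55 and 6.55 in depleted cells. These groups did not overlap either, yet the nearest control and depleted arrays were almost level (log2 fold change −0.19, limma adjusted p = 0.620, and −0.06 without control replicate 2).

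Rspo2 and Rspo4 overlapped between the groups. Rspo2 read 6.11 and 6.47 in controls and 6.41 and 5.99 in depleted cells. Neither group lay to one side (log2 fold change −0.09, limma adjusted p = 0.821), and the sign turned to 0.09 without control replicate 2 and to 0.12 without depleted replicate 2. Without control replicate 1 and without depleted replicate 1 it was −0.27 and −0.30. Rspo4 read 6.41 and 5.46 in controls and 6.20 and 6.17 in depleted cells. Its 2 control arrays were the highest and the lowest of the 4, a gap of 0.96, while the depleted arrays lay within 0.025 of each other (log2 fold change 0.25, limma adjusted p = 0.519). The value was −0.23 when control replicate 2 was left out and 0.73 when control replicate 1 was left out, where it passed (limma adjusted p = 0.0108). On the fibroblast marker list, which includes the collagen gene Col1a1, the mean log2 signal of 8 genes was 7.54 and 7.81 in controls and 7.38 and 7.45 in depleted cells, with 5 of the 8 above the receptor background and 0 of 8 called in either direction. Of the primitive endoderm, trophectoderm, neuroectoderm and mesoderm markers, 4 of 7, 4 of 7, 2 of 6 and 2 of 5 lay above that background, and 0 were called. The fibroblast mean was highest on control replicate 2, as were the means of the primitive endoderm, neuroectoderm and pluripotency markers, and, of the 9 genes, Rspo1, Rspo2, Rspo3, Lgr5, Lgr6 and Rnf43. The part of such cells in the ligand signals was not tested. Fewer cells of a type and less RNA per cell cannot be told apart in bulk samples.

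**Figure D2:**
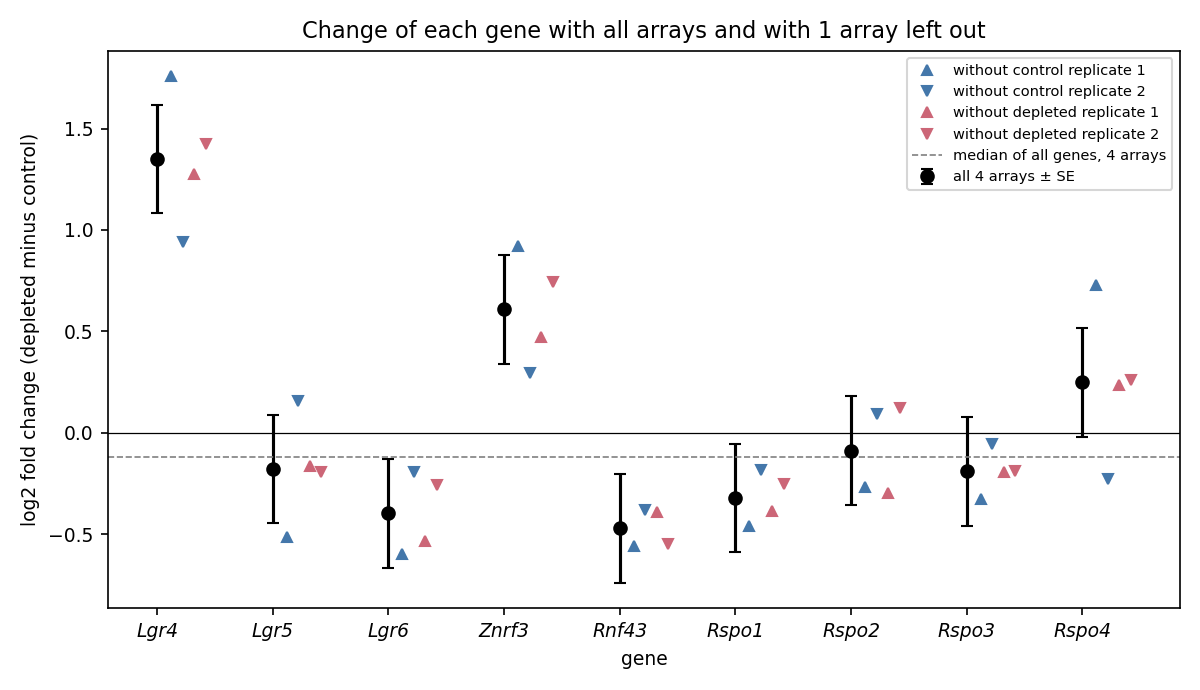
Log2 fold change (depleted minus control, vertical axis) of each R-spondin axis gene with all 4 arrays (black, ± the standard error pooled over all genes, the same for each) and with 1 array left out (triangles), with the median of all genes as a dashed line at −0.12. Lgr4 stays between 0.94 and 1.76, whereas the triangles of Lgr5, Rspo2 and Rspo4 lie on both sides of 0.

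Among the 9 genes, 1 was called higher, Lgr4, and 0 lower, where 2.62% of all genes were called higher and 0.105% lower. As Lgr4 was chosen for its rise, nothing is read from that count. Without overlap between the groups, 2 genes were higher (Lgr4 and Znrf3) and 4 lower (Lgr6, Rnf43, Rspo1 and Rspo3), against 27.4% and 33.3% of all genes. Together these were 6 of 9, where 60.7% of all genes did not overlap. With a fold of at least 1.5 as well, 2 were higher and 0 lower, against 12.1% and 3.35% of all genes. With 9 genes, 1 of them chosen for its rise, none of these counts stands as a result about the group. The median log2 fold change of the 8 genes other than Lgr4 was −0.18, against −0.12 over all genes and −0.20 over the receptor genes, which are near the floor of the array as are most of these 8. The smallest change called for any gene was 0.86 in size, and none of the 8 reached it with all 4 arrays. A p above the threshold does not show that these genes did not differ.

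Lgr4 and Znrf3 had the same order of arrays, lowest on control replicate 2, then control replicate 1, depleted replicate 2 and depleted replicate 1. This is also the order of the arrays on the first principal component, and 17.9% of all genes had it, with 18.5% in the reverse order. Leaving out control replicate 2 gave changes of 0.94 for Lgr4 and 0.30 for Znrf3. Leaving out control replicate 1 instead gave 1.76 and 0.92. The part of either control array in these differences was not tested.

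The other Wnt pathway genes were compared through lists of their roles. Outside the 9 genes, the lists covered 105 measured genes. The test called 4 of them higher and 0 lower, or 3.81% higher, where 2.62% of all genes were called higher and 0.105% lower. The 4 were Lef1, whose rise was known beforehand, and Gpc3, Prom1 and Fzd7. As Lef1 was listed with its rise known, nothing is read from that share. The median log2 fold change of the 105 was −0.24, against −0.12 for all genes. Of the 105, 34 lay above 0, as did 8498 of all 19938 genes. The fit without control replicate 1, which called a large share of all genes as given above, also raised the count in every list but that of Wnt secretion.

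Among Wnt receptors, 1 of 15 was called higher and 0 lower. The median was −0.23, but it was 0.019 without control replicate 2 and 0.12 over the receptors above the receptor background, and 10 of 15 were called without control replicate 1. The gene was Fzd7, a receptor of the Frizzled family on which Znrf3 and Rnf43 act, with 7.77 and 7.43 in controls and 8.51 and 8.48 in depleted cells. It was higher on both depleted arrays (log2 fold change 0.89, limma adjusted p = 0.0416). The call was lost without control replicate 2, at 0.72. That fit called far fewer genes than the fit of all arrays, so this loss is not particular to Fzd7. The call was also lost without quantile normalization (limma adjusted p = 0.0924) and with limma's robust settings alone (0.0622). The log2 fold change was 0.88 and 0.90 without depleted replicates 1 and 2, where the call was lost in fits that called almost no gene. Fzd2 and Fzd5 stood at 0.74 and 0.73 (limma adjusted p = 0.0947 and 0.101), and the co-receptor genes Lrp6 and Lrp5 at 0.36 and 0.12 (limma adjusted p = 0.370 and 0.763). By the means of both groups, Fzd2 lay under the receptor background. Of the 15 receptors, 9 lay below 0, with Ror2 and Fzd9 lowest at −0.56 and −0.52 (limma adjusted p = 0.201 and 0.229). Without overlap, 5 of the 15 were higher and 5 lower, against 27.4% and 33.3% of all genes.

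Of 8 co-receptors and partners reported for R-spondins, 1 was called higher and 0 lower (median 0.24, and −0.0031 without control replicate 2). Above the receptor background and with the offset of 50, 2 were called. These settings called 6.41% and 6.16% of the genes in each fit higher, and 1.24% and 1.83% lower. The counts of the lists below in these settings are to be read against the same shares. Gpc3, a heparan sulphate proteoglycan of the cell surface, read 7.09 and 6.38 in controls and 8.09 and 7.86 in depleted cells. It was 2.36-fold higher (log2 fold change 1.24, limma adjusted p = 0.00281). Its call was lost without control replicate 2, at 0.89. That fit called far fewer genes than the fit of all arrays, so this loss is not particular to Gpc3. The log2 fold change was 1.13 and 1.35 without depleted replicates 1 and 2, where the call was lost in fits that called almost no gene. Tnfrsf19 (Troy), a membrane receptor and Wnt target, stood at 0.70 (limma adjusted p = 0.117). The syndecan gene Sdc4, a co-receptor of Rspo3, stood at −0.21 (limma adjusted p = 0.581).

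Of 19 Wnt ligand genes, 17 lay below 0, and the median of the 19 was −0.35. Below 0 also lay 11440 of all 19938 genes and 941 of the 1196 receptor genes, with medians of −0.12 and −0.20. By the mean over the 4 arrays, 8 of the 19 lay above the receptor background, with a median of −0.52. Leaving out control replicate 2 gave the 19 a median of −0.18, and leaving out depleted replicate 2 gave −0.54. None of the 19 was called with all 4 arrays (0 higher, 0 lower). The count was 10 without control replicate 1 and 1 with limma's trend or with an offset of 50. The lowest p belonged to Wnt6 and Wnt9b, both at −0.58 (limma adjusted p = 0.189 and 0.190). The 2 genes of Wnt secretion, Porcn and Wls, stood at −0.38 and −0.28 (limma adjusted p = 0.339 and 0.463). None of 16 antagonist genes was called either (median −0.24, from −0.39 without control replicate 1 to −0.077 without control replicate 2). The count was 8 without control replicate 1, 2 with the offset, and 1 with median centring, with limma's trend or above the receptor background. Sfrp2, a secreted Frizzled-related protein, stood at 0.73 and Sostdc1 at −0.62 (limma adjusted p = 0.102 and 0.163). Of 14 genes of Dishevelled proteins, the destruction complex and beta-catenin, 0 were called (median −0.32, and −0.09 after median centring of the arrays). Without control replicate 1, 7 were called. Dvl3 stood at −0.59 and Gsk3b at 0.56 (limma adjusted p = 0.182 and 0.204).

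Among 10 measured TCF factors and nuclear partners, none of the 9 other than Lef1 was called, and the median of the 10 was 0.19 (−0.02 without control replicate 2, 0.061 when depleted replicate 1 was left out; 6 of the 10 called without control replicate 1). Lef1, a transcription factor that acts with beta-catenin, read 6.26 and 6.24 in controls and 7.81 and 7.70 in depleted cells, a log2 fold change of 1.51. It was known to rise from these arrays before the lists were made, so no test is given for it. Unlike for Lgr4, its control arrays lay within 0.02 of each other. Of 17 measured Wnt target genes, Znrf3, Rnf43 and Lgr5 included, none of the 16 other than Lef1 was called. The list median was −0.18 (−0.091 without control replicate 2). Above the receptor background and with the offset of 50, 2 genes of the list were called, Lef1 included. Axin2, a widely used reporter of Wnt activity, read 7.88 and 7.82 in controls and 7.41 and 7.35 in depleted cells. It stood at −0.47 (limma adjusted p = 0.264). Tnfrsf19 and Znrf3, of the same list, stood at 0.70 and 0.61. Of the 17 targets, 7 lay above 0, Lef1 included, and 10 below. Of 11 measured genes known beside Lgr5 in intestinal stem cells, 1 was called higher and 0 lower (median −0.22, and −0.12 without control replicate 2). The gene was the membrane glycoprotein gene Prom1, at 0.97 (limma adjusted p = 0.0264). Its call was lost without control replicate 2, at 0.69. That fit called far fewer genes than the fit of all arrays, so this loss is not particular to Prom1. The log2 fold change was 0.71 and 1.23 without depleted replicates 1 and 2, where the call was lost in fits that called almost no gene. The signal of Prom1 was under the receptor background on every array. Its call was also lost with limma's intensity trend (limma adjusted p = 0.0723), with trend and robust settings (0.0612) and without quantile normalization (0.115).

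**Figure D3:**
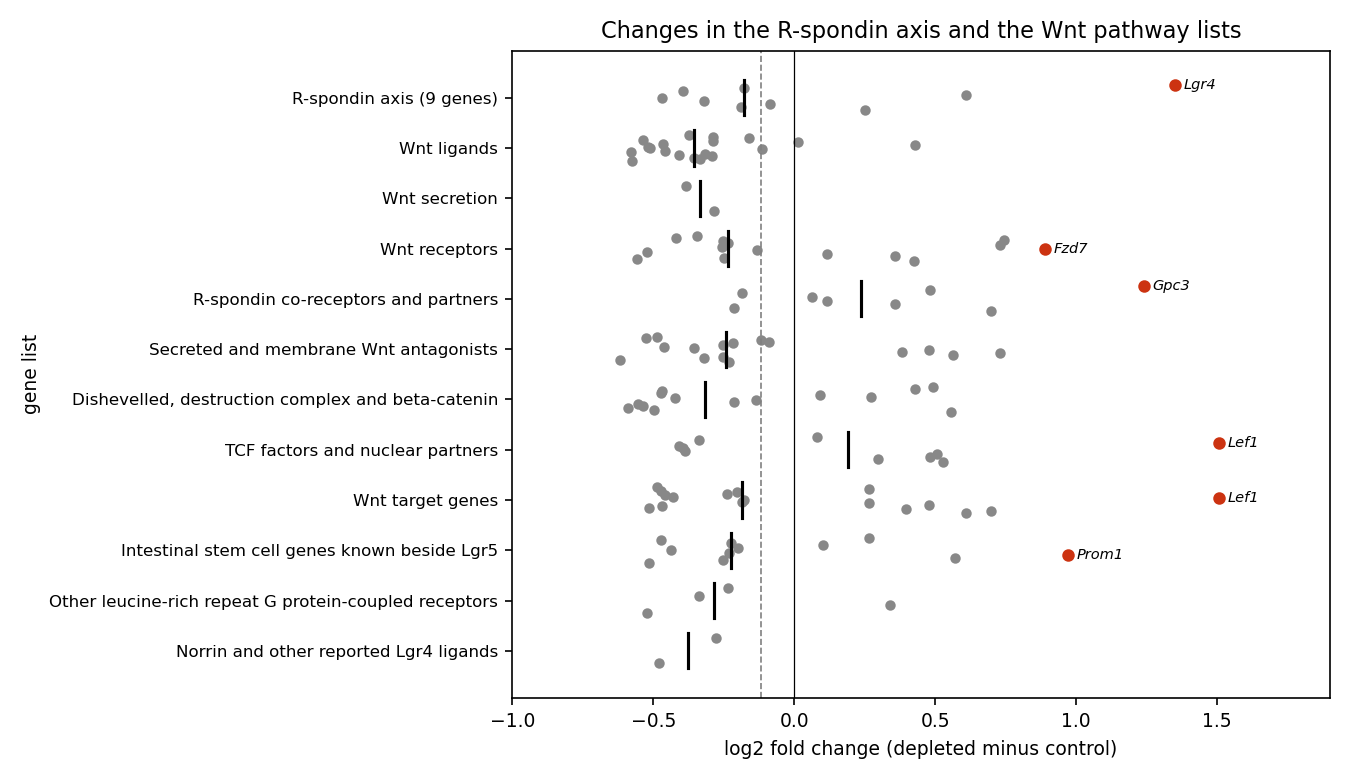
Log2 fold change (depleted minus control, horizontal axis) of each measured gene in the R-spondin axis and 11 pathway lists, with called genes in red, a bar at each list median and the median of all genes as a dashed line at −0.12. The called genes, Lgr4, Lef1, Gpc3, Prom1 and Fzd7, all lie to the right, and all other genes lie between −0.62 and 0.74.

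The other relatives and ligands of Lgr4 showed no call with all 4 arrays, while 3 of 4 and 2 of 2 were called without control replicate 1. Of 4 measured leucine-rich repeat receptors outside the R-spondin group, the thyrotropin receptor gene Tshr stood at −0.52 and the relaxin-family receptor gene Rxfp2 at 0.34 (limma adjusted p = 0.228 and 0.388), and all 4 were under the receptor background. Ndp (norrin) and Tnfsf11 (RANKL), reported as further Lgr4 ligands, stood at −0.28 and −0.48 (limma adjusted p = 0.475 and 0.258).

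The 5 genes whose pattern over the 4 arrays was most like that of Lgr4 were found by the Euclidean distance between log2 profiles centred on each gene's own mean. They were Fabp6 (distance 0.073), a bile acid binding protein gene, Gpc3 (0.14), the proton pump subunit gene Atp6v0a4 (0.15), the lipase gene Liph (0.15) and the growth factor receptor gene Fgfr2 (0.16). Their log2 fold changes ran from 1.22 to 1.39, which the choice by likeness to Lgr4 fixes. Of the R-spondin axis, Znrf3 was nearest to Lgr4 at 0.76, then Rspo4 at 1.11, and the other 6 lay from 1.67 to 1.96. With 4 arrays such a likeness is a description only. By the means of both groups, Fabp6 and Fgfr2 lay under the receptor background.

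**Figure D4:**
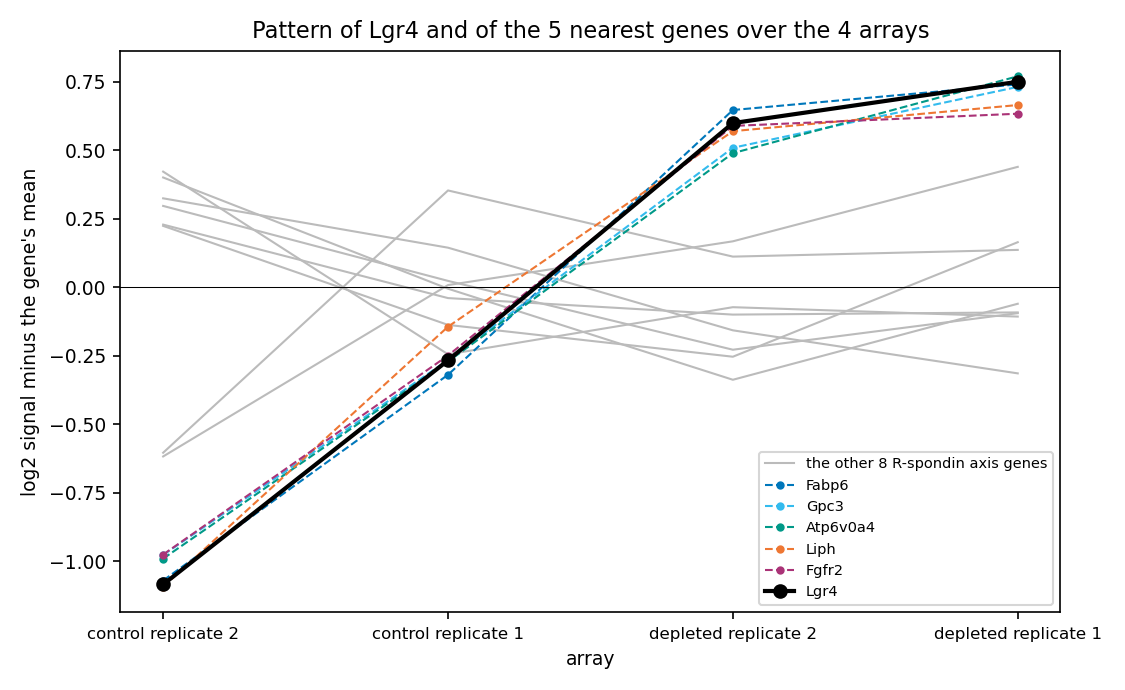
Log2 signal minus each gene's own mean (vertical axis) on the 4 arrays, which are set out by their place on the first principal component, for Lgr4 (black), the 5 genes nearest to it in pattern among those without provisional names (coloured) and the other 8 R-spondin axis genes (grey). The coloured genes follow Lgr4 on every array within their distances of 0.073 to 0.16, and none of the grey genes lies nearer than 0.76.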

How the data were processed

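The authors deposited 1 linear intensity per probe set and array for 28856 probe sets. How these intensities were summarised, background-corrected and scaled is not given in the sources used here. GEO's platform annotation, which can be old, gave 1 symbol to 21789 probe sets, several to 1621 and none to 5446. Intensities were put on the log2 scale, quantile-normalized over all probe sets, and reduced to the brightest probe set of each of 19938 genes. A model of 2 groups was fitted on all genes with limma 3.58.1 (R 4.3.3, lmFit, eBayes, two-sided), with Benjamini-Hochberg adjustment at 0.05. It was checked on simulated data with independent noise of equal size for every gene. Those data held no shared array effect like that of control replicate 2, so the check does not cover false calls from such an effect. In the fit of all 4 arrays the variance was pooled over genes, so all genes shared a standard error of 0.27. A p-value from it follows the size of the change and not the gene's own spread. With 2 arrays against 2, the smallest p of an exact permutation test is 0.333. The number of arrays limits the precision. The 9 genes and the lists were chosen with earlier results of these data known. Named genes were the 9, Usp22, Pou5f1, Nanog and Sox2, each list's called genes or otherwise the 2 with the lowest p, and the 5 nearest to Lgr4. Those 5 were taken among genes without provisional names. Axin2, Lrp5, Lrp6, Sdc4, Tnfrsf19, Fzd2, Fzd5, Ror2, Fzd9 and Col1a1 were named after their values were seen. Tcf7, T, Lhcgr and Ephb2 were not analysed here. No coordinates are given for array genes because the files name no build. Alternatives were other scaling, an offset of 50, filters on dim genes, limma's trend and robust settings, averaged probe sets, a replicate block and leaving out each array.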

Additional observations from a re-analysis of the deposited data

How the results depend on the processing

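Lgr4 kept its sign in all 14 alternatives. Its log2 fold change ran from 0.98 (offset of 50) to 1.40 (each array centred on its median) over the 10 processing settings. Only the offset, median centring and the deposited log2 values could move it. The other processing settings leave it at 1.35 by construction. With 1 array left out it ran from 0.94 to 1.76. Usp22 ran from −1.15 to −1.09 with 1 array left out. With 1 array left out, Lgr5 ran from −0.51 to 0.15, Rspo2 from −0.30 to 0.12 and Rspo4 from −0.23 to 0.73. In the processing settings no member changed sign, where again only the offset, median centring and the deposited log2 values could move an estimate. Genes called higher and lower (523 and 21) numbered 75 and 10 on the deposited log2 values, 927 and 20 with median centring, 326 and 286 with limma's trend, 381 and 339 with trend and robust settings, 295 and 11 with robust settings alone (added after seeing the data), 856 and 42 with a replicate block, and 1228 and 365 with the offset. Genes called higher and lower were 739 and 36 of 14953 with the dimmest 25% left out, and 624 and 121 of 9738 above the receptor background. With 1 array left out, 0 to 4884 were higher and 0 to 4236 lower; at an unadjusted p under 0.05, limma gave 540 higher and 48 lower without depleted replicate 1, against 1628 higher and 338 lower when depleted replicate 2 was left out.

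List medians moved beyond the spread between arrays as follows. On the deposited log2 values they were −0.23 for Dishevelled and the destruction complex, −0.35 for the intestinal stem cell genes, −0.32 for Wnt receptors, −0.49 for Wnt secretion and −0.24 for Wnt targets. With median centring they were −0.089, −0.18 and −0.10 for the destruction complex, receptors and targets. Above the receptor background they were −0.42 for the destruction complex, −0.32 for the stem cell genes, −0.040 for antagonists, 0.12 for receptors and −0.24 for targets, each over fewer genes. With the offset they were −0.16 for the stem cell genes and for receptors, −0.23 for secretion and −0.12 for targets. Without the dimmest 25%, that of the other leucine-rich repeat receptors was −0.52. With 1 array left out, medians ran from −0.34 to −0.27 for the destruction complex, −0.31 to −0.12 for the stem cell genes, −0.56 to −0.0028 for the other leucine-rich repeat receptors, −0.0031 to 0.41 for co-receptors, −0.018 to 0.30 for TCF factors, −0.22 to 0.019 for Wnt receptors and −0.20 to −0.091 for targets. The cause was not tested. Over all genes, the median on the deposited log2 values was −0.24. The replicate numbers share only a number. Deviations of same-numbered arrays from their group means correlated at 0.10 across genes. With 2 arrays per group both pairs give this same value, so it is a single comparison. The replicate block left Lgr4 at 1.35, as a balanced block must, and called none of the other 8 genes.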
